A study of Mus musculus with 12 samples.

Results

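Organoids grown from mouse kidney progenitor cells were compared with the kidney tissue of the same regions on 8 Affymetrix expression arrays, 4 of organoids and 4 of tissue, out of 12 arrays in the series. The tissue arrays were 2 of kidney cortex and 2 of kidney medulla. The organoid arrays were 2 of cortex-derived and 2 of medulla-derived organoids, so that region was balanced between the sides. The members were chosen by their labels alone, and the comparison was described across all genes that had a probe set with a single gene symbol, 18193 genes, of which 13037 passed a brightness filter and were tested. Per the labels' protocols, renal progenitor cells were isolated from cortex and from medulla and grown on a layer of fibroblast feeder cells, and organoids were then made from such cells in a 3D Matrigel system meant to let them differentiate. The labels give no strain, age, sex, passage number or time in Matrigel, and no agent other than Matrigel. They call the replicates biological and the design text speaks of 2 biological samples, without saying whether arrays with the same number come from 1 animal or culture. In such bulk RNA fewer cells of a type and less RNA per cell cannot be told apart.

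The nephron is a chain of epithelial segments. The proximal tubule reclaims glucose, amino acids, phosphate and filtered protein and burns fatty acids to do so, the thick ascending limb pumps salt, the distal and connecting tubules adjust calcium and sodium, and the collecting duct sets water and acid balance through principal and intercalated cells. Injured or cultured tubule cells are known to lose much of this equipment, to enter the cell cycle and to switch on injury genes such as Havcr1, which encodes kidney injury molecule KIM-1, and Lcn2, which encodes lipocalin 2 (NGAL).

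The deposited values are log2 signals from the MAS5 algorithm, and every array had the same trimmed mean signal of 500. Signals were unlogged, an offset of 15.1 signal units was added, and differences are given on the log2(signal + offset) scale, where 1 unit is a 2-fold change and changes of dim genes are understated. Levels are given as deposited log2 signals. The array medians lay between 6.03 and 6.53 on the 8 arrays. Replicate arrays correlated across genes at 0.987 for cortex tissue, 0.979 for medulla tissue, 0.983 for cortex organoids and 0.945 for medulla organoids, and the median absolute difference between replicates was 0.41 in medulla organoids against 0.16 to 0.23 in the other groups. The spiked poly-A control probe sets had median log2 signals of 7.96 to 8.83 on the tissue arrays and 1.21 to 1.88 on the organoid arrays, while the spiked hybridization controls were at 12.08 to 12.33 and 12.44 to 12.81. The Gapdh control probe sets near the 3′ end exceeded those near the 5′ end by −0.23 to 0.18 log2 units on tissue and by 0.87 to 1.67 on organoid arrays, and for Actb by 0.94 to 1.63 on tissue and by −0.0015 to 0.15 on organoid arrays. These control values separated the sides completely, and their part in the differences below was not tested.

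The labels were checked against marker lists. The mean log2 signal over 44 proximal tubule transporters was 11.83 to 12.33 on the tissue arrays and 5.61 to 6.04 on the organoid arrays. Medulla tissue carried proximal tubule genes almost as strongly as cortex tissue: Slc34a1 (sodium-phosphate cotransporter) was at 14.48 and 14.59 in cortex and at 13.82 and 14.43 in medulla. Slc14a2, the urea transporter of the inner medulla, was at 5.57 and 5.49 in cortex and at 12.69 and 10.83 in medulla, so the regions stood apart in the direction of their labels. Over 33 genes of simple epithelia the mean log2 signal was 11.30 to 11.37 in organoids and 10.06 to 10.71 in tissue. Over 22 fibroblast and feeder cell genes it was 7.45 to 8.10 in tissue, 6.14 to 6.62 in cortex organoids and 8.67 to 8.69 in medulla organoids.

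Most genes differed between organoids and tissue. By limma's moderated test with Benjamini-Hochberg adjustment, 10389 of 13037 genes (79.7%) passed an adjusted p of 0.05, 4308 of them higher in organoids (33.0%) and 6081 lower (46.6%). A difference of at least 2-fold was reached by 2714 of the higher and 4242 of the lower genes, and one of at least 16-fold by 206 and 558. The median difference of all genes was −0.29. All 4 organoid arrays lay above all 4 tissue arrays for 3492 genes (26.8%) and below them for 5168 (39.6%). Each list below is read against 33.0% higher, 46.6% lower and a median of −0.29. The 38 gene lists held 973 genes, of which 878 were tested; a gene bright on a single side passed the filter through that side.

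Genes often have several probe sets, and the brightest stood for the gene. Of 5100 called genes with another bright probe set, 2340 had all of the others called the same way, and 1601 had at least 1 called the opposite way. The share with an opposite probe set was 21.4% among higher genes and 40.7% among lower genes. Among changes of at least 4-fold the numbers were 73 of 584 and 123 of 747. Where a gene named below has an opposite probe set, this is stated.

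**Figure D1:**
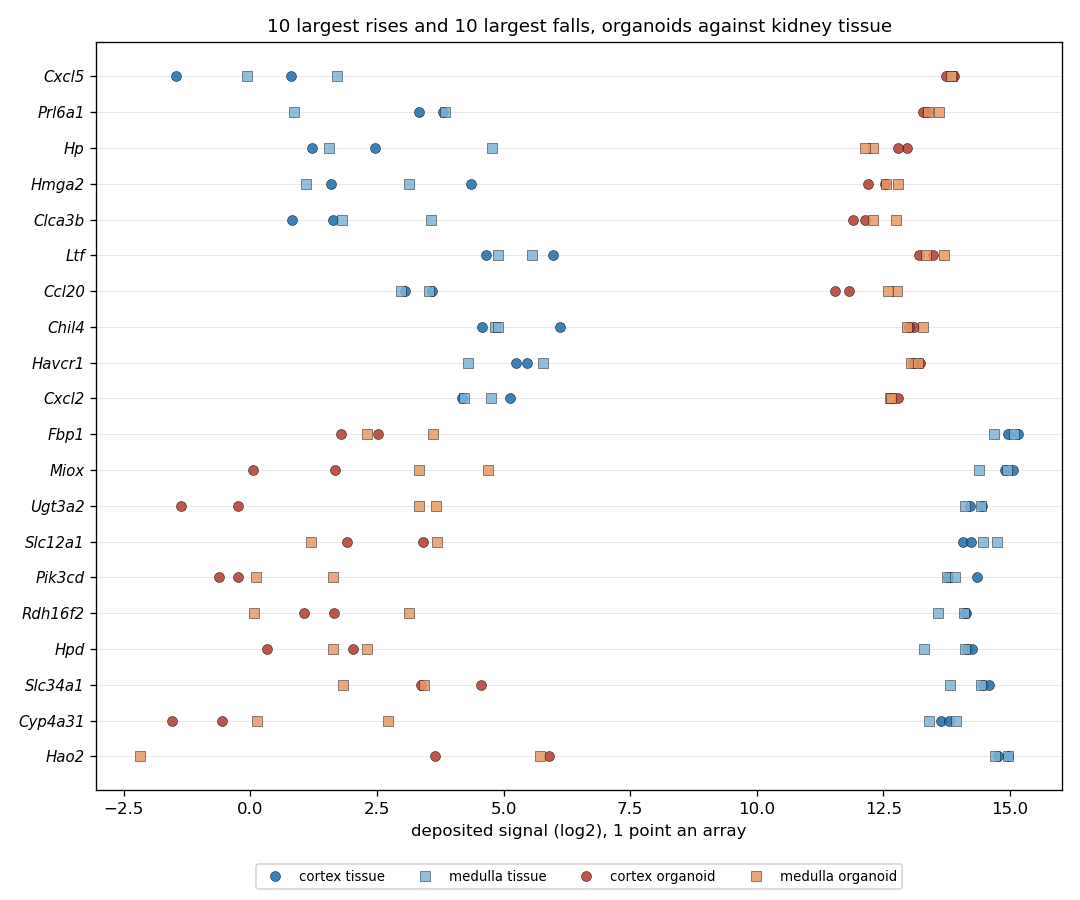
Deposited log2 signal of the 10 genes with the largest rise and the 10 with the largest fall (rows) on each of the 8 arrays (points; circles cortex, squares medulla, blue tissue, red and orange organoid). In every row the 4 organoid points lie on 1 side of the 4 tissue points, with Cxcl5 at 13.73 to 13.89 in organoids and Fbp1 at 14.68 to 15.16 in tissue.

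The 10 largest falls were mostly enzymes and transporters of the proximal tubule. Fbp1, the fructose-bisphosphatase of gluconeogenesis, had log2 signals of 14.96 and 15.16 in cortex tissue, 14.68 and 15.08 in medulla tissue, 1.79 and 2.52 in cortex organoids and 2.29 and 3.62 in medulla organoids, a difference of −10.54 ± 0.19 (SE; limma adjusted p = 2.28e-12). Every organoid array was below its array's median and every tissue array was far above it. Miox, which opens the inositol ring in the renal cortex, was at 14.90, 15.06, 14.39 and 14.95 on the tissue arrays in the same order and at 0.05, 1.67, 3.32 and 4.70 on the organoid arrays, a difference of −10.27 ± 0.22. Slc34a1 was at 3.37, 4.56, 3.43 and 1.84 on the organoid arrays, and fell by 9.61. These genes had no overlap between the sides in either region. Ugt3a2 (a UDP-glycosyltransferase), Rdh16f2 (a retinol dehydrogenase), Hpd (tyrosine breakdown), Cyp4a31 (a fatty acid hydroxylase) and Hao2 (peroxisomal hydroxyacid oxidase) fell by 9.95, 9.76, 9.75, 9.60 and 9.59. The remaining largest falls were Slc12a1, the salt cotransporter of the thick ascending limb, at −9.91, and Pik3cd, a phosphoinositide kinase subunit, at −9.91. The mean log2 signals of Pik3cd were 14.06 in cortex and 13.84 in medulla tissue, and −0.43 and 0.87 in the organoids. In the progenitor cultures of the series it was still at 13.45 (cortex-derived) and 13.35 (medulla-derived). Pik3cd had no other bright probe set. The poly-A control medians also were higher on progenitor arrays (7.03 to 7.37) than on organoid arrays (1.21 to 1.88). Whether the Pik3cd values share a source with these controls was not tested.

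The proximal tubule lists fell nearly as a whole. Of 44 transporters 40 fell and 1 rose, with a median difference of −6.17. Slc34a1, Slc22a7 (organic anions, −9.33), Slc13a3 (dicarboxylates, −8.85) and Slc22a19 (−8.78) had the largest falls. Of 25 genes of protein uptake and the brush border, 23 fell and none rose, with a median of −5.49. They include the endocytic receptors Lrp2 (megalin, −8.31) and Cubn (cubilin, −8.29) and the meprin protease subunits Mep1b (−8.59) and Mep1a (−8.07). Lrp2 was at 13.73, 13.66, 13.30 and 13.48 on the tissue arrays and at 3.31, 5.58, 4.81 and 3.83 on the organoid arrays. Of 41 genes of gluconeogenesis and of amino acid and inositol breakdown, 37 fell and 3 rose, with a median of −5.53. The exceptions that rose were Bcat1, the cytosolic branched-chain aminotransferase (2.97 ± 0.19), Arg2, mitochondrial arginase (1.69 ± 0.15), and Acsm3, a medium-chain acyl-CoA synthetase (1.31 ± 0.25). Of 18 renal cytochrome P450 and conjugation enzymes, 17 fell and none rose, with a median of −6.28, led by Cyp2j5 (−9.50), Cyp2d26 (−8.71), Ugt2b38 (−8.69) and Cyp4a14 (−8.59).

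Hnf4a, which encodes a transcription factor of proximal tubule genes, was at 13.22, 13.32, 12.84 and 13.28 in tissue and at 4.42, −1.06, 1.05 and 5.68 in organoids, a fall of 8.34 ± 0.43. The organoid arrays were spread widely, and all of them were below the array medians.

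More distal segments fell as well, by less in the median than the proximal tubule lists. Of 21 thick ascending limb genes 16 fell and 2 rose (median −3.98). Umod, which encodes the urinary glycoprotein uromodulin, stood at 14.97, 15.08, 15.11 and 15.11 in tissue and still at 11.30, 11.54, 10.74 and 10.75 in organoids, a fall of 3.98 ± 0.13. All 4 organoid arrays were below tissue but far above their array medians. Slc12a1 and Egf (epidermal growth factor precursor, −9.53) fell much further in the same list. Cldn19, a tight junction claudin of this segment, rose by 2.63 ± 0.17, and Irx2, a segment transcription factor, rose by 0.48 (adjusted p = 0.039); leaving out single arrays left 1 to 3 risen genes in this list. Without cortex tissue replicate 1, medulla tissue replicate 2 or either cortex organoid array the number was not 2.

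Of 18 distal convoluted and connecting tubule genes 15 fell and 2 rose (median −3.74). The largest falls were Kl (klotho, −8.57), Slc12a3 (the thiazide-sensitive cotransporter, −8.08), Slc8a1 (sodium-calcium exchange, −7.10) and Klk1 (kallikrein, −6.39, with another probe set called higher). Of 20 principal cell genes 17 fell and 3 rose (median −2.32), led by the water channels Aqp4 (−5.60), Aqp2 (−5.52) and Aqp3 (−5.40) and the sodium channel subunit Scnn1g (−4.43). Aqp2 was at 11.13, 11.23, 12.56 and 11.43 in tissue and at 6.26, 5.78, 5.15 and 5.58 in organoids, close to or below the array medians there. Ptges, a prostaglandin E synthase, rose by 1.94 ± 0.19. Of 19 intercalated cell genes 17 fell and none rose (median −3.73), led by Car15 (carbonic anhydrase, −6.69), Rhcg (ammonia channel, −6.51), Foxi1 (the intercalated cell transcription factor, −6.22) and Atp6v1b1 (proton pump subunit, −6.03). Slc4a1, the basolateral anion exchanger, fell by 4.83 ± 0.26.

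Some segment genes stayed near their tissue level. A gene was taken as kept when the 95% interval of its difference lay within 1 log2 unit of 0, which held for 3842 of 13037 genes (29.5%), and when its mean signal over the 8 arrays exceeded 8. Slc26a4, the anion exchanger pendrin of intercalated cells, was at 12.04, 11.71, 10.63 and 11.64 in tissue and at 12.08, 12.18, 11.06 and 10.73 in organoids, a difference of 0.01 with a 95% interval of −0.43 to 0.45. Atp6v0d2, a proton pump subunit, was at 10.86 to 10.92 in tissue and 10.74 to 11.23 in organoids (difference 0.07 ± 0.23), but its other bright probe set was called higher, at 1.91. The sides overlapped for both genes, whereas Foxi1 and the pump subunit Atp6v1b1 separated completely.
Slc5a8 (lactate and short-chain fatty acids) and Slc5a1 (the glucose cotransporter SGLT1) differed by −0.06 ± 0.10 and −0.06 ± 0.13 in the transporter list. The other bright probe set of Slc5a1 was called lower, at −0.86. The transporter Abcc4 fell by 0.35 ± 0.13. Slc15a2, the peptide transporter PEPT2, rose by 0.36 ± 0.11, with its other 2 probe sets called lower. Cndp2, a cytosolic dipeptidase, differed by −0.16 ± 0.12, and by 0.50 after quantile normalization, while its other bright probe set was at −1.28. Defb1 (beta-defensin 1) fell by 0.76 ± 0.09, and by 1.63 on its other bright probe set, and Kcnj16, a potassium channel, rose by 0.37 ± 0.08 with another probe set called lower. In the principal cell list Mal, a membrane proteolipid, fell by 0.31 ± 0.11 (0.29 higher after quantile normalization) and the transcription factor Tfcp2l1 by 0.70 ± 0.11. Of 188 tested genes of the nephron segment and catabolism lists 21 were kept (11.2%), against 3152 of all 13037 genes (24.2%). The intervals are those of the probe set chosen for a gene, and show only that any difference of their means is within 1 log2 unit.

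**Figure D2:**
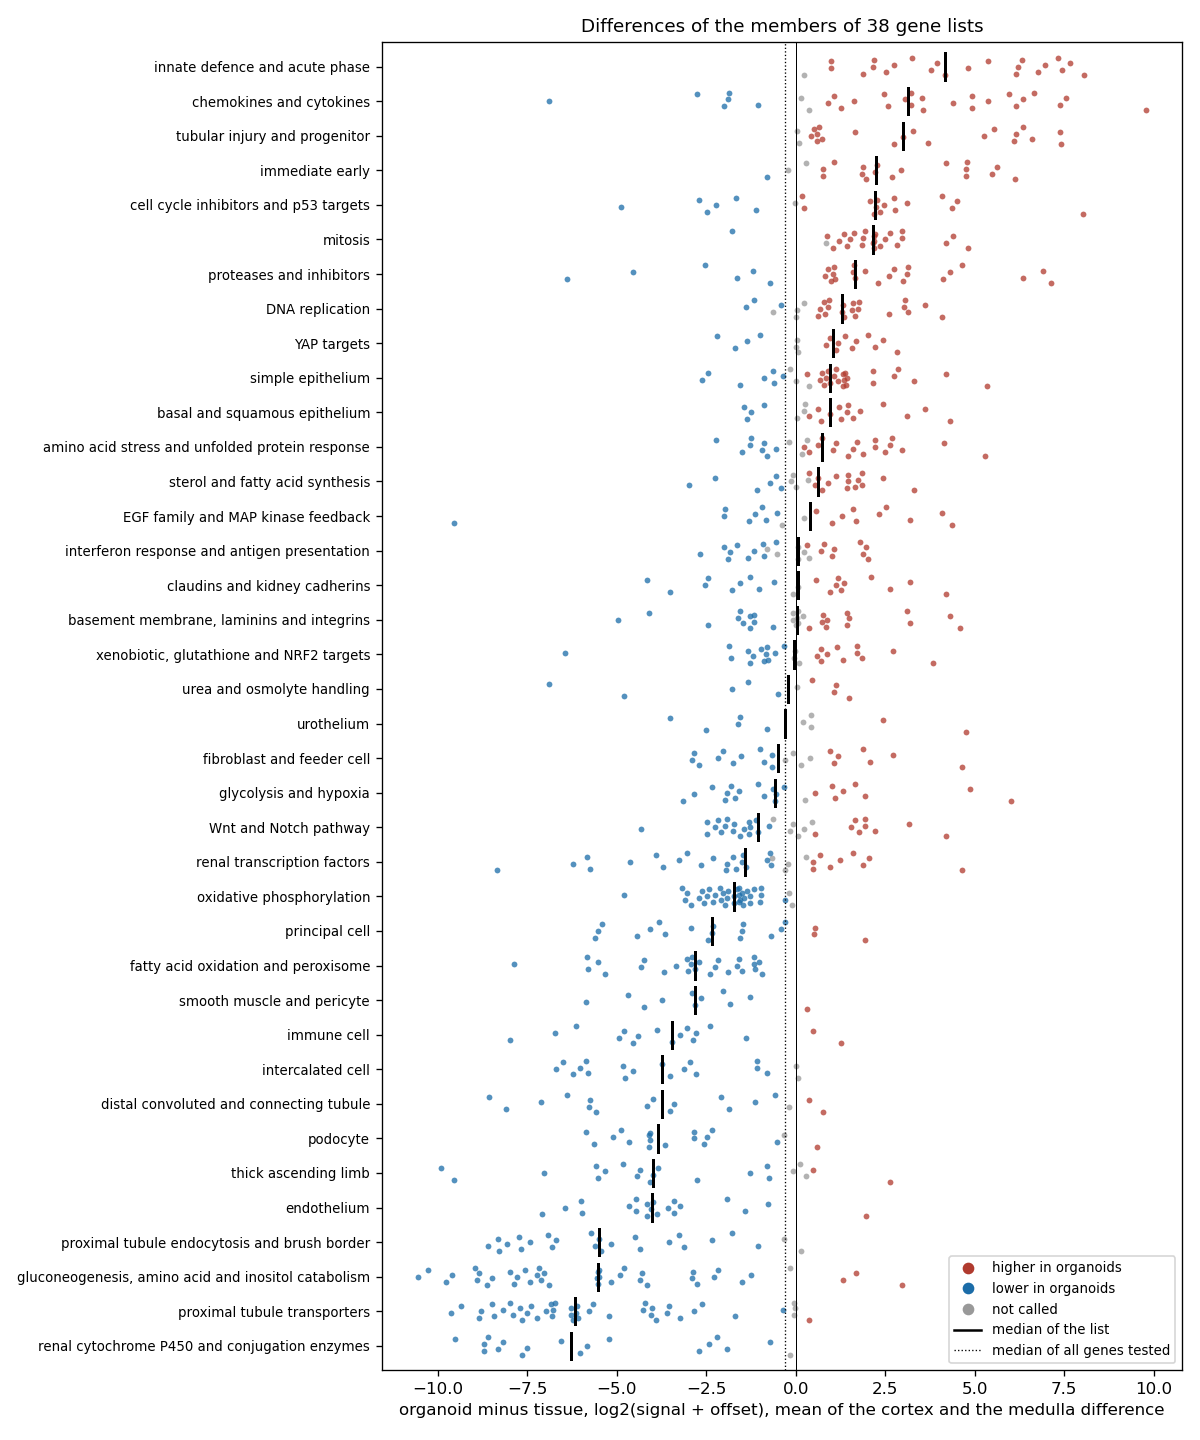
Organoid minus tissue difference (log2(signal + offset), horizontal) of each tested member of 38 gene lists (rows, ordered by median; red higher, blue lower, grey not called; bar, list median; dotted line, median of all genes at −0.29). Renal cytochrome P450 genes have the lowest median, −6.28, and innate defence genes the highest, 4.17.

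Genes of glomerular, vascular and blood-derived cells were mostly lower in organoids. Of 18 podocyte genes 16 fell and 1 rose (median −3.85). Nphs1 (nephrin), which builds the filtration slit, was at 9.16, 9.33, 8.06 and 8.58 in tissue and at 0.70, 0.86, 2.01 and 2.16 in organoids, and Wt1, the podocyte transcription factor, fell by 4.07 ± 0.33. Of 20 endothelial genes 19 fell (median −4.01), led by Plvap (−7.09), Emcn (−6.45), Tek (−6.00) and Esam (−5.98), and Pecam1 was at 8.56, 8.91, 9.08 and 8.63 in tissue and at 2.93, −0.19, 1.77 and 3.78 in organoids. The exception was Sox17, an endodermal and arterial transcription factor, at 9.08, 9.29, 10.11 and 9.59 in tissue and at 10.97, 10.75, 12.50 and 11.78 in organoids (1.96 ± 0.16). Of 17 immune cell genes 15 fell and 2 rose (median −3.46): class II genes such as H2-Aa (−7.99) and H2-Eb1 (−6.73) were low in all organoid arrays. Cd68, a lysosomal protein of macrophages and other cells, rose by 1.27, and Ptprc, which encodes the leukocyte antigen CD45, was at 8.56 to 9.07 in tissue and 9.06 to 9.68 in organoids (0.49 ± 0.19, adjusted p = 0.0316). The Ptprc call was lost when any of 5 single arrays was left out (either cortex organoid, cortex tissue replicate 1, medulla tissue replicate 1 or medulla organoid replicate 2). Of 11 smooth muscle and pericyte genes 10 fell (median −2.81), led by Rgs5 (−5.86) and Acta2 (smooth muscle actin, −4.69). Plvap, Emcn, Tek, Esam, Pecam1, Nphs1 and Wt1 were below the array median on every organoid array, whereas Acta2 was at 5.24 to 7.53 there. The single rise among smooth muscle genes was Mylk, a myosin kinase (0.33, another probe set called lower), a call that single arrays decided: the number was 0 or 1 with 1 array left out.

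Genes of simple epithelia were more often higher than lower. Of 33 simple epithelium genes 23 rose and 7 fell (median 0.97), against a background of 33.0% higher. The intermediate filament keratins Krt19 (5.35 ± 0.24), Krt18 (3.31 ± 0.11) and Krt8 (0.86 ± 0.11) rose, as did the embryonic claudin Cldn6 (4.20 ± 0.14) and the epithelial transcription factor Ehf (2.85 ± 0.14). Krt19 was at 4.79, 5.65, 7.51 and 8.94 in tissue and at 12.64, 12.52, 12.31 and 11.96 in organoids. Epcam, a general epithelial adhesion molecule, was at 11.36, 11.75, 13.15 and 12.17 in tissue and at 12.75, 12.65, 12.32 and 12.22 in organoids, and its difference of 0.38 ± 0.17 did not pass (adjusted p = 0.0645). Cdh1 (E-cadherin) fell by 0.60 ± 0.12. Cdh16, the kidney-specific cadherin, was at 14.27 to 14.43 on the 4 tissue arrays and as low as 11.66 on the organoid arrays, a fall of 2.44 ± 0.09 that left it well above the array medians. The protease Prss8 (−2.62) and the collecting duct claudin Cldn8 (−1.56) fell with it.

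Among claudins and kidney cadherins as a group, 10 of 21 genes rose and 9 fell (median 0.06): Cldn6, Cldn11 (3.19), Cldn19 and Cdh3 (P-cadherin, 2.10) rose most, and Cldn5 (endothelial, −4.17), Cldn15 (−3.51) and Cldn2 (proximal tubule, −2.53) fell most together with Cdh16.
Of 21 genes of basal and squamous epithelia 14 rose and 4 fell (median 0.95). Lamb3, a laminin chain of the hemidesmosome, rose by 4.31 ± 0.22, Sprr1a, a cornified envelope protein, by 3.61 ± 0.27, the integrin Itgb4 by 3.10 and the desmosomal cadherin Dsc2 by 2.44. The basal keratin Krt5 was at 4.15, 4.94, 6.70 and 7.94 in tissue and at 1.21, 1.82, 4.87 and 5.52 in organoids and fell by 1.43 ± 0.29. The basal cell factor Trp63 (−1.24) and the keratins Krt15 (−1.36) and Krt6a (−0.87) fell too. Of 10 urothelial genes 2 rose, Upk1a (4.75 ± 0.23) and Foxa1 (2.45), and 5 fell, including Shh (−3.50), the uroplakins Upk3a (−2.52) and Upk2 (−1.61), and Upk1b (−1.57). The regions differed in this list: 5 genes were called higher and 1 lower in cortex (median 0.58), against 1 higher and 6 lower in medulla (median −1.43). Upk1b differed by 0.10 in cortex, which did not pass, and fell by 3.24 in medulla.

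Injury genes were mostly higher in organoids. Of 21 tubular injury and progenitor genes 19 rose and none fell (median 2.99). Havcr1 was at 5.47, 5.25, 5.77 and 4.31 in tissue and at 13.22, 13.09, 13.05 and 13.18 in organoids, a rise of 7.42 ± 0.17 (adjusted p = 1.05e-11). Lcn2 was at 5.90, 6.68, 8.96 and 7.29 in tissue and at 14.01, 13.86, 14.20 and 13.87 in organoids (6.60 ± 0.27), and Sox9, a factor of tubule repair, was at 4.28, 5.13, 1.44 and 5.25 in tissue and at 10.57, 10.42, 11.11 and 10.64 in organoids (5.53 ± 0.29). The sides were far apart for all 3 genes in both regions. The surface proteins Prom1 (CD133) and Cd24a, used to isolate tubule progenitors, rose by little, 0.51 ± 0.12 and 0.43 ± 0.13, from tissue signals of 13.02 to 13.20 and 12.81 to 14.11. Of the remaining members, Sox4 and the integrin Itgb6, named after their values were seen, differed by 0.08 and 0.02 and did not pass.

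Of 23 genes of innate defence and the acute phase 22 rose and none fell (median 4.17). Without the brightness filter 2 genes of this list fell. Hp (haptoglobin, 8.04 ± 0.25), Ltf (lactoferrin, 7.67 ± 0.20), Chil4 (a chitinase-like protein, 7.44 ± 0.33) and S100a8 (a calprotectin subunit, 7.33 ± 0.16) led the list. S100a8 was at 5.67 to 6.29 on the tissue arrays and at 13.37 to 13.71 on the organoid arrays. Of 30 chemokines and cytokines 22 rose and 6 fell (median 3.14). Cxcl5, a neutrophil chemokine and the largest rise of all named genes, was at −1.47, 0.81, −0.07 and 1.72 in tissue and at 13.89, 13.73, 13.86 and 13.84 in organoids, a rise of 9.77 ± 0.10 (adjusted p = 4.23e-14). Ccl20, Cxcl2 and Il1f6 (the gene of interleukin 36 alpha) rose by 7.55, 7.39 and 6.64. Cxcl12, the stromal chemokine, was at 11.59 to 12.94 in tissue and 1.67 to 6.27 in organoids and fell by 6.89 ± 0.24; Il18 (−2.77) and Ccl5 (−1.90) also fell. The further genes among the 10 largest rises were Prl6a1, a prolactin family gene, at 0.86 to 3.84 in tissue and 13.29 to 13.61 in organoids (8.79 ± 0.17), Hmga2, a chromatin protein of growing cells (8.02 ± 0.19), and Clca3b, a chloride channel accessory gene (7.97 ± 0.20).

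Of 25 genes of the interferon response and antigen presentation 9 rose and 10 fell (median 0.07). Stat2 (2.02), Ifit3 (1.97) and Oas1a (1.87) rose most, while Gbp3 (−2.66), Rsad2 (−2.01), Irf7 (−1.90) and the immunoproteasome subunit Psmb9 (−1.84) fell. Without cortex tissue replicate 1 the number that rose was 5. The letters TGANTCA of the AP-1 motif, searched on both strands in the 250 bases before RefSeq gene starts (mouse GRCm38.p6), occurred in 11 of 57 windows (19.3%) of the injury, chemokine and EGF family lists, against 4.79% of the windows of genes tested and 6.75% of all 32851 windows. A match is not a measured binding site. None of the 15 EGF family windows held them. The window shown, as an example, is that of Lif, the interleukin 6 family cytokine that rose by 5.27 ± 0.26. Lif has a single window, and capitals mark the match.
Lif, chr11:4257318-4257567, plus strand: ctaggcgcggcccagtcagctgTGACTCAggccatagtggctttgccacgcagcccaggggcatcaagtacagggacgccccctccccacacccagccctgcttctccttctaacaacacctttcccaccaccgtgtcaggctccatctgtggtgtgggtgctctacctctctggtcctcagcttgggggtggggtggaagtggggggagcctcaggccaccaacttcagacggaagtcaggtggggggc

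The immediate early list holds genes of AP-1 subunits, such as Fos, Fosb and Junb, and other genes, such as Egr2. A link between their changes and the motif matches was not tested. Of 20 immediate early genes 17 rose and 1 fell (median 2.23). Fosb was at 4.15 to 4.96 on the tissue arrays and at 11.29 to 11.71 on the organoid arrays (6.13 ± 0.15). Egr2 (5.62), Maff (5.48) and Fos (4.78) followed, and Junb fell by 0.81; without medulla organoid replicate 2 2 genes fell. Of 20 genes of the EGF family and of MAP kinase feedback 10 rose and 8 fell (median 0.40). The ligand Ereg (epiregulin, 4.37 ± 0.25) and the phosphatase Dusp5 (4.10 ± 0.16) rose most, followed by Phlda1 (3.20) and Etv4 (2.51), while Egf, the receptor Egfr (−2.01, another probe set called higher), Etv5 (−1.99) and Errfi1 (−1.30) fell. Of 18 genes that the YAP coactivator controls or that belong to its pathway 11 rose and 4 fell (median 1.05), with Ccn1 at 2.82 and Crim1 at −2.21.

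**Figure D3:**
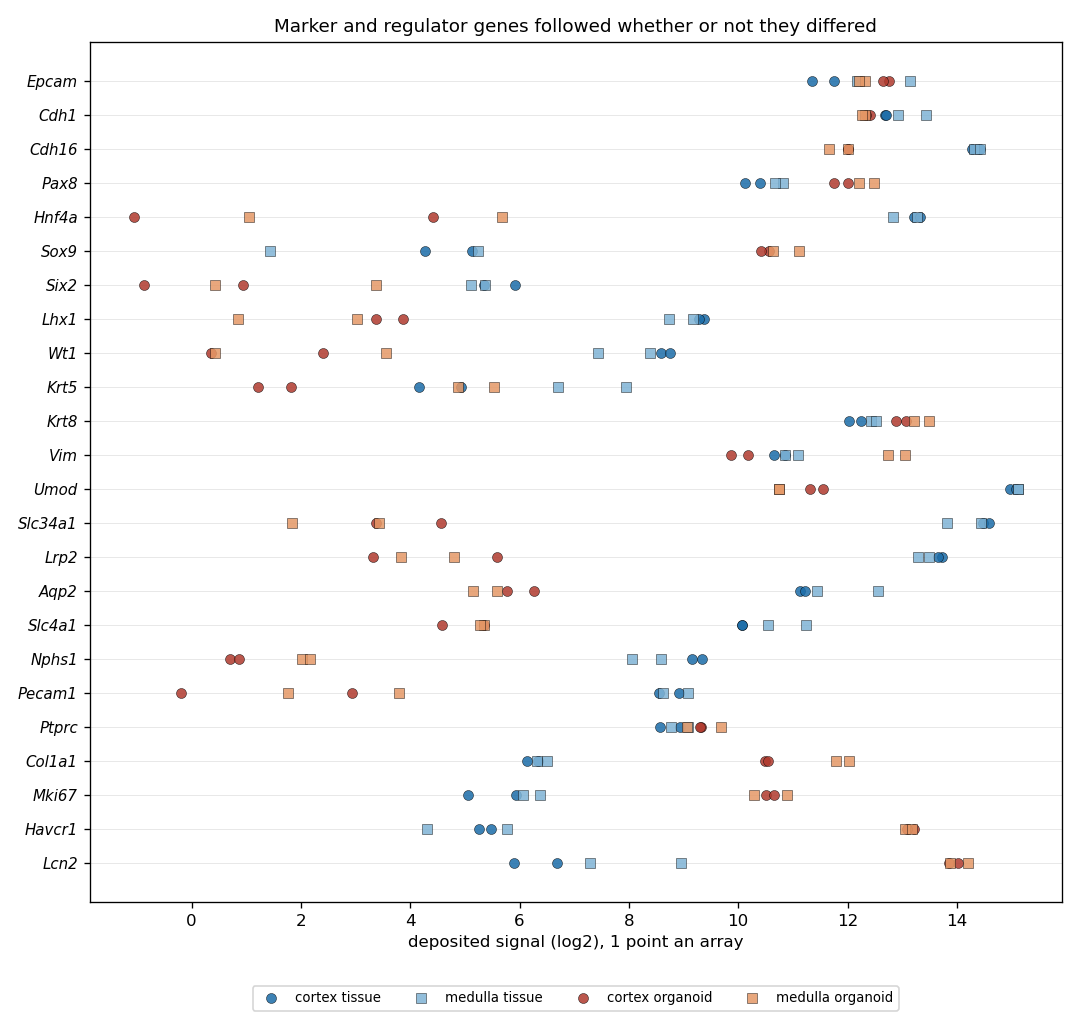
Deposited log2 signal of the genes followed whether or not they differed (rows) on the 8 arrays (points; circles cortex, squares medulla, blue tissue, red and orange organoid). Havcr1, Lcn2, Sox9 and Mki67 lie higher on all organoid arrays, Epcam and Ptprc overlap, and Vim is split by region within the organoids.

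Proliferation genes were higher together with inhibitors of the cell cycle. Of 26 mitosis genes 24 rose and 1 fell (median 2.16), and of 27 DNA replication genes 20 rose and 3 fell (median 1.30). Mki67, the gene of the proliferation antigen Ki-67, was at 5.06, 5.94, 6.06 and 6.37 in tissue and at 10.50, 10.65, 10.90 and 10.29 in organoids (4.39 ± 0.17). The sides did not overlap. The kinesin Kif20a (4.81), the condensin subunit Ncapg (4.19), the ribonucleotide reductase subunit Rrm2 (4.07) and the helicase subunit Mcm6 (3.61) rose with it. The mitotic transcription factor Foxm1 fell by 1.78 ± 0.20, but 1 of its 2 other probe sets was called higher. Of 22 cell cycle inhibitors and p53 targets 15 rose and 6 fell (median 2.22). Cdkn2b (4.50 ± 0.17), Cdkn2a (4.37 ± 0.28) and Cdkn1a (4.07 ± 0.18), which encode p15, p16 with p19ARF, and p21, rose, and Cdkn1c, the p57 gene of podocytes, fell by 4.88. Cdkn2a was at 4.27, 3.43, 0.07 and 4.72 in tissue and at 9.42, 8.48, 9.15 and 9.45 in organoids. The remaining falls were Igfbp3 (−2.70), Cdkn2c (−2.49), Sesn1 (−2.23) and 2 smaller ones.

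Promoters of mitosis genes are known for CCAAT boxes and for a CHR element. In the same kind of window the letters CCAAT, on either strand, occurred in 34 of 48 windows (70.8%) of the replication and mitosis lists, against 34.9% of the windows of genes tested and 33.8% of all windows. The CHR letters TTTGAA occurred in 9 of 22 windows of mitosis genes (40.9%) and 3 of 26 windows of replication genes (11.5%), against 10.7% of the windows of genes tested and 16% of all windows. The window shown, as an example, is that of Mki67, which has a single window. Its 2 CHR matches are in capitals.
Mki67, chr7:135716380-135716629, minus strand: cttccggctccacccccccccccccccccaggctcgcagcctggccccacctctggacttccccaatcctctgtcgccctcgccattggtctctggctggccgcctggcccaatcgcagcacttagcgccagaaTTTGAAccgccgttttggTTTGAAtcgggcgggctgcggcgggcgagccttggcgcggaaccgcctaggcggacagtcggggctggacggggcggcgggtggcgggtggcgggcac

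Metabolic genes fell in the mitochondrion and peroxisome. Of 38 oxidative phosphorylation genes 36 fell and none rose (median −1.72), and of 27 genes of fatty acid oxidation and the peroxisome all 27 fell (median −2.81). Ehhadh, a peroxisomal oxidation enzyme, was at 13.85 to 13.99 on the tissue arrays and at 5.29 to 5.95 on the organoid arrays (−7.88 ± 0.14), and Ppara, the fatty acid sensing nuclear receptor, fell by 5.84 ± 0.26. Among respiratory chain genes Cox7a1 fell by 4.81, Uqcrc1 by 3.19, Uqcrfs1 by 3.10 and Sdhb by 3.04. Sdha, a subunit of the same complex as Sdhb, was at 13.34 to 13.49 in tissue and 13.19 to 13.41 in organoids and did not pass (−0.12 ± 0.08), while after quantile normalization it was 0.59 higher and passed (limma adjusted p = 5.91e-06).

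Of 23 genes of glycolysis and hypoxia 8 rose and 14 fell (median −0.58). Hk2, the inducible hexokinase, was at 6.28, 6.46, 5.93 and 5.83 in tissue and at 12.51, 12.45, 12.35 and 12.35 in organoids (6.01 ± 0.09). Adm (adrenomedullin, 4.86, another probe set called lower), Ankrd37 (1.93) and Pkm (1.65) rose, and the hypoxia targets Vegfa (−3.14), Bnip3 (−2.84) and Ndrg1 (−2.34) fell with Hk1 (−1.97, another probe set called higher). Of 25 genes of sterol and fatty acid synthesis 15 rose and 6 fell (median 0.64), with Lss (3.30), Insig1 (2.44), Idi1 (1.85) and Srebf2 (1.84) highest and Scd1 (−2.97), a fatty acid desaturase, lowest. Of 27 xenobiotic, glutathione and NRF2 target genes 11 rose and 13 fell (median −0.05). Akr1b8 (3.84 ± 0.16) and Hmox1 (heme oxygenase, 2.72) rose and the glutathione transferase Gsta2 fell by 6.45 ± 0.25. Of 29 genes of amino acid stress and the unfolded protein response 18 rose and 8 fell (median 0.75): the cystine transporter Slc7a11 (5.28 ± 0.22), Nupr1 (4.14), Asns (2.97) and Trib3 (2.69) were highest, and Herpud1 (−2.24) and Shmt2 (−1.50) lowest.

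Renal transcription factors moved in both directions, 9 of 34 up and 21 down (median −1.43). Pax8, a factor of the nephron lineage, was at 10.13, 10.39, 10.81 and 10.68 in tissue and at 12.01, 11.75, 12.48 and 12.21 in organoids (1.60 ± 0.11). Its lowest organoid array lay above its highest tissue array. The homeobox genes Hoxd11 (4.64 ± 0.43), Hoxb7 (2.04) and Hoxd10 (1.89) rose too. Hnf4a, Foxi1, Ppara and Maf (−5.75) had the largest falls, and Lhx1, of early nephrons and of mature tubules, fell from 8.73 to 9.37 in tissue to 0.85 to 3.87 in organoids (−4.63 ± 0.23). Six2, the marker of embryonic nephron progenitors, was at 5.12 to 5.92 in tissue, below the array medians, and at −0.87 to 3.37 in organoids. Of 33 Wnt and Notch pathway genes 9 rose and 18 fell (median −1.04). The Notch target Hey1 (4.20 ± 0.20), the ligand Wnt4 (3.15 ± 0.23), Notch2 (2.22) and Lgr6 (1.94) rose most, and the Wnt inhibitors Sfrp1 (−4.33) and Dkk3 (−2.49), Lfng (−2.48) and Wnt6 (−2.25) fell most.

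The matrix genes split. Of 30 genes of basement membrane and integrins 12 rose and 11 fell (median 0.05). The collagen receptor subunit Itga2 (4.58 ± 0.32), Lamb3 and the fibronectin receptor subunit Itga5 (3.19) rose, while Itga8, of mesangium and nephron development, and Itgb8 fell by 4.96 and 4.09. Of 28 proteases and inhibitors 22 rose and 6 fell (median 1.64). Mmp7 (matrilysin) was at 4.69, 6.39, 2.81 and 7.20 in tissue and at 13.02, 12.77, 13.43 and 13.06 in organoids (7.12 ± 0.47), and the transmembrane protease Tmprss4 rose by 6.35 ± 0.24. Ctse (cathepsin E) rose by 6.91 with another probe set called lower, and Timp3, a matrix metalloprotease inhibitor, fell by 4.54 ± 0.10. Of 10 genes of urea and osmolyte handling 4 rose and 5 fell, among them Aqp1, the water channel of the proximal tubule and thin limb, which fell by 6.89.

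Within each region the comparison had 2 arrays a side. In cortex 4016 genes were higher (30.8%) and 5356 lower (41.1%), 9372 in all (71.9%); in medulla 3657 were higher (28.1%) and 5515 lower (42.3%), 9172 in all (70.4%). Of these, 7693 genes were called in the same direction in both regions, 3104 higher and 4589 lower, and 95 in opposite directions. The 2 comparisons set different arrays against each other, but both took the spread of a gene from 1 fit to all 12 arrays. Their calls are therefore not independent. Whether the change differed between the regions was tested by the interaction, the medulla difference minus the cortex difference. It passed for 1096 genes (8.41%), 411 with a higher change in medulla (3.15%) and 685 with a lower one (5.25%), and for 514 of them both regions were called in the same direction. This number depended on single arrays: it was 331 without cortex tissue replicate 1, 487 without cortex tissue replicate 2, 504 without medulla tissue replicate 1, 537 without cortex organoid replicate 1 and 438 without cortex organoid replicate 2. It was 2304 without medulla organoid replicate 1 and 3183 without medulla organoid replicate 2, the arrays of the pair that differed most from each other. For 947 of the 1096 genes the regions differed more in organoids than in tissue.

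**Figure D4:**
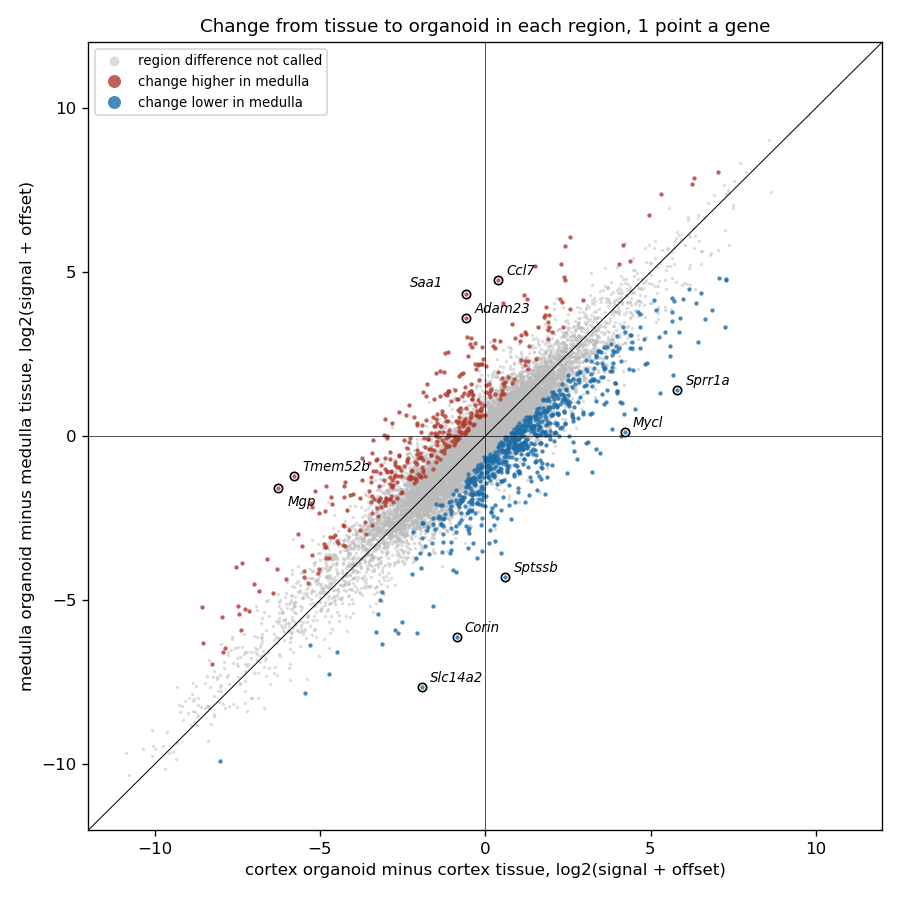
Difference between medulla organoids and medulla tissue (vertical) against that between cortex organoids and cortex tissue (horizontal), both log2(signal + offset), 1 point a gene; coloured genes passed the test of the region difference, and circles mark the 5 largest each way. Most points follow the diagonal, with Saa1 and Ccl7 far above it and Slc14a2 and Corin far below it.

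The largest region differences were of both kinds. Saa1, an acute phase protein, was at 4.40 to 5.77 in tissue, 5.14 and 2.30 in cortex organoids and 10.02 and 9.94 in medulla organoids, an interaction of 4.92 ± 0.67 (limma adjusted p = 0.00229). The chemokine gene Ccl7 (4.38 ± 0.58) and Adam23 (4.17 ± 0.61) had the same pattern, high in medulla organoids alone. Mgp (matrix Gla protein, 4.70 ± 0.35) and Tmem52b (4.58 ± 0.57) fell in both regions but less in medulla: Tmem52b was at 6.81 and 6.74 in cortex organoids and at 10.87 and 10.90 in medulla organoids. In the opposite direction, Slc14a2 (−5.73 ± 0.70), Corin, a serine protease (−5.25 ± 0.76), and Sptssb (−4.91 ± 0.57) were bright in medulla tissue and dim on all other arrays of the comparison. Corin was at 11.28 and 9.40 in medulla tissue, 4.97 and 3.46 in cortex tissue and at most 2.77 in organoids. Sprr1a (−4.39) and Mycl (−4.10) were highest in cortex organoids and started lower in cortex tissue.

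Fibroblast and feeder cell genes separated the organoids of the regions. Of 22 tested genes 7 rose and 11 fell in the balanced comparison (median −0.49), 4 rose and 12 fell in cortex (median −1.12), and 10 rose and 6 fell in medulla (median 0.38). The interaction passed for 12 of the 22 genes, all with the higher change in medulla, against 3.15% of all genes in that direction. Leaving out 1 array at a time gave 7 to 14 genes, all in that direction, and the fit to the 8 arrays alone gave 5. Col6a1, a collagen VI chain chosen after its values were seen, was at 8.04, 9.15, 8.88 and 8.37 in tissue, at 6.82 and 6.60 in cortex organoids and at 10.35 and 10.15 in medulla organoids (interaction 3.33 ± 0.42). Cortex organoids lay below all tissue arrays and medulla organoids above them. Vim (vimentin), a member of the injury list and not of this one, was at 10.66 to 11.09 in tissue, at 9.87 and 10.18 in cortex organoids and at 13.06 and 12.73 in medulla organoids (interaction 2.63 ± 0.25), with 1 of its 2 other probe sets called the opposite way in the balanced comparison. Col1a1, a collagen I chain, was higher in the organoids of both regions, at 6.14 to 6.50 in tissue, 10.49 and 10.55 in cortex organoids and 12.03 and 11.78 in medulla organoids (4.65 ± 0.12). Lum (−2.90), Col5a2 (−2.83) and Pdgfra (−2.70) fell in both regions. The feeder layer consists of fibroblasts, and the part of feeder cells in these values was not tested.

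**Figure D5:**
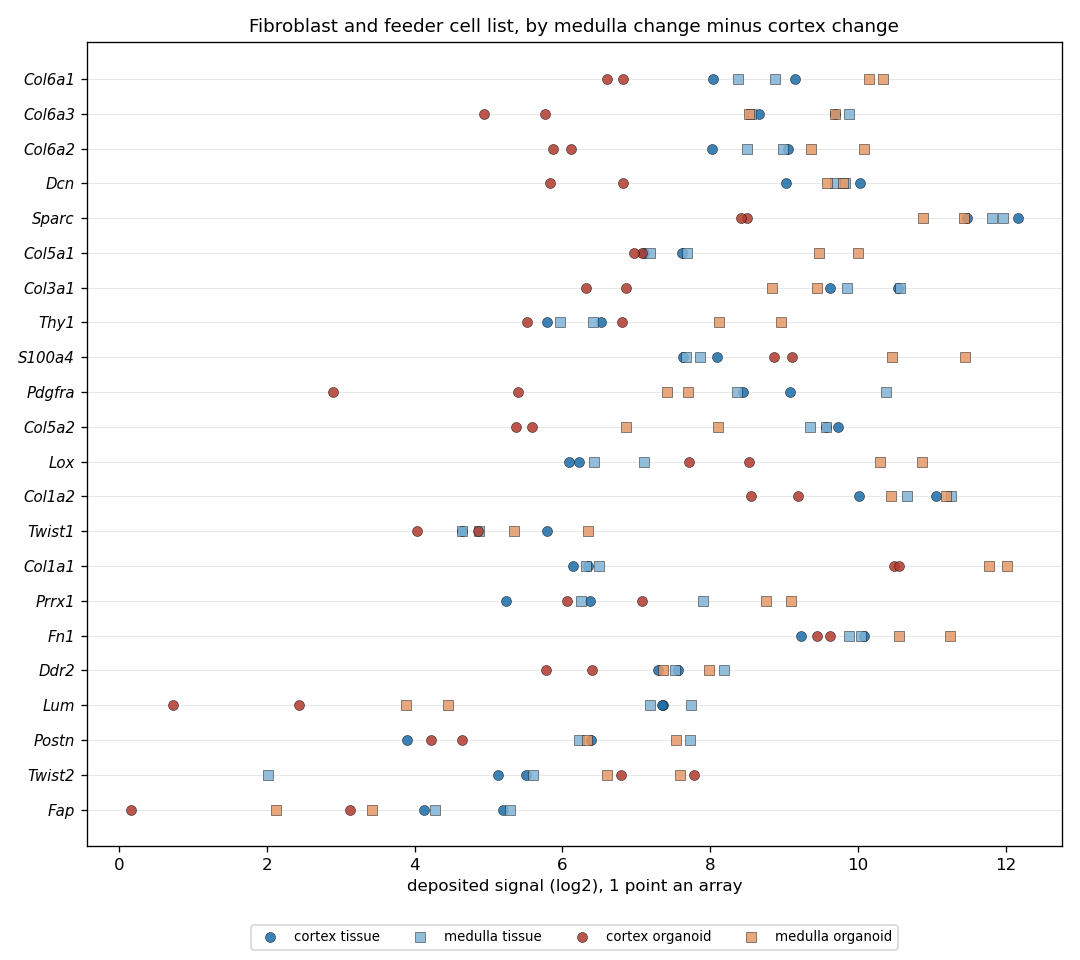
Deposited log2 signal of the 22 tested fibroblast and feeder cell genes (rows, ordered by the medulla change minus the cortex change) on the 8 arrays (points; circles cortex, squares medulla, blue tissue, red and orange organoid). In the upper rows, from Col6a1 down, medulla organoids lie to the right of cortex organoids, and Col1a1 is higher in all organoid arrays than in tissue.

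Genes of simple epithelia mostly had the lower change in medulla where the regions differed. The interaction passed for 11 of 33 simple epithelium genes, 10 of them with the lower change in medulla, against 5.25% of all genes in that direction; leaving out 1 array at a time gave 3 to 12 lower ones. The fit to the 8 arrays alone gave 3 lower ones and array weights gave 5, each against 1 higher. Krt19 had an interaction of −3.03 ± 0.48, Ehf −1.54, Epcam −1.53 ± 0.35 and Krt18 −0.98. For Krt19, Epcam and Ehf the regions differed more in tissue, where medulla was the brighter, than in organoids. Of 25 interferon and antigen presentation genes 7 had the lower change in medulla and none the higher; the number was 0 to 11 with 1 array left out. Both the fit to the 8 arrays alone and array weights left 1 such gene. The mean log2 signal of the interferon list was 9.02 to 9.07 in cortex organoids and 8.17 to 8.62 in medulla organoids. Of 10 urothelial genes 5 had the lower change in medulla, among them Foxa1 (−3.51) and Upk3a (−3.12), which were brighter in medulla than in cortex tissue; the number was 2 to 7 with 1 array left out. Other epithelial lists did not share this direction: the higher change in medulla was that of 4 principal cell genes against 1 lower, of 3 genes of proximal tubule endocytosis against none, and of 4 claudins and kidney cadherins against 2. With 1 array left out the higher ones numbered 2 to 5, 1 to 4 and 2 to 6. Aqp1 was at 4.53 and 4.22 in cortex organoids and at 9.24 and 8.13 in medulla organoids, against 13.63 to 14.00 in tissue (interaction 3.35 ± 0.42). Among injury genes Ccl2 (2.09 ± 0.27) and Vim (2.63) had the higher change in medulla and Sox4 (−1.06) the lower. Havcr1, Lcn2 and Sox9 did not pass.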

How the data were processed

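Per the submitters' processing notes the authors used MAS5, version not given in the sources used here, and the deposited values are log2 signals, scaled to a common 2% trimmed mean signal of 500. No detection calls were used. Of 45101 probe sets, 34958 had a single symbol and named 18193 genes, 932 had several and 9211 none; the brightest set over the arrays stood for its gene. Signals were unlogged, the 25th percentile of all values (15.1) was added as an offset, and log2 was taken. Genes were kept where both arrays of 1 or more of the 6 groups exceeded their array medians, 13037 in all. limma 3.58.1 in R 4.3.3 fitted 6 group means to the 12 arrays, progenitors included, with 6 residual and 5.67 prior degrees of freedom, a variance trend and Benjamini-Hochberg adjustment at 0.05. Organoid minus tissue averaged cortex and medulla equally, and the interaction was the medulla minus the cortex difference. The scripts were tested on simulated data. With 2 arrays a group, their number limits the precision. The p-values measure the spread between arrays of a group, pooled over the 6 groups with the progenitors. Promoter windows came from RefSeq, GRCm38.p6.

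The genes named are the 10 largest rises and falls past the threshold, at least 2-fold and with no overlap between the sides, the 5 largest interactions each way, up to 4 members each way of each list, kept genes of the lists, and a set followed whether or not they differed. The comparison, genes and lists were chosen with earlier results of these data known. Alternatives were another normalization, offset, filter, probe set rule, array set, variance prior, array weights, a replicate block and leaving out each array in turn. Arrays with equal replicate numbers were not treated as pairs. Results on some followed genes are not reported here.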

Additional observations from a re-analysis of the deposited data

Results flagged for a closer look

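The change from tissue to organoid differed between the regions, by limma's test of the difference itself with Benjamini-Hochberg adjustment, for 1096 genes. Values here are the medulla change minus the cortex change on the log2(signal + offset) scale. Of the genes named above, the higher change in medulla was that of Saa1 (4.92), Mgp (4.70), Tmem52b (4.58), Ccl7 (4.38), Adam23 (4.17), Aqp1 (3.35), Col6a1 (3.33), Vim (2.63), Maf (2.48), Ccl2 (2.09), Ptges (2.09), Col5a2 (1.89), Itga5 (1.77), Aqp4 (1.63), Itgb8 (1.43), Col1a1 (1.23), Cldn2 (1.07), Ndrg1 (1.05), Ccl20 (1.02), Adm (0.99), Timp3 (0.97) and Defb1 (0.85).

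The lower change in medulla was that of Slc14a2 (−5.73), Corin (−5.25), Sptssb (−4.91), Sprr1a (−4.39), Mycl (−4.10), Foxa1 (−3.51), Upk1b (−3.34), Upk3a (−3.12), Krt19 (−3.03), Krt15 (−3.00), Esam (−2.51), Lamb3 (−2.28), Upk1a (−2.28), Nupr1 (−2.22), Sfrp1 (−2.15), Bcat1 (−1.72), Ehf (−1.54), Epcam (−1.53), Rsad2 (−1.48), Irx2 (−1.40), Cdkn2b (−1.31), Slc15a2 (−1.28), Hk1 (−1.07), Sox4 (−1.06), Krt18 (−0.98), Cldn6 (−0.97), Phlda1 (−0.95) and Mal (−0.82).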

How the results depend on the processing

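The number of genes called in organoid minus tissue was 9896 to 10759 with 1 array left out, in cortex 8296 to 10196 and in medulla 8206 to 9463. Counting only genes whose other bright probe sets were all called the same way, chosen after seeing the data, left 2340 of 5100. Of these 1306 were higher and 1034 lower, so 55.8% were higher, against 41.5% of all calls. The interaction count was 331 to 3183 with 1 array left out, 337 in the fit to the 8 arrays alone and 389 with array weights; the cause was not tested. With the replicate block the counts were 10350, 9322, 9107 and 930, within 1.5 times of those reported. With array weights 9889 genes were called in organoid minus tissue, 10064 in cortex and 7347 in medulla. That fit gave the medulla organoid arrays a weight of 0.24 and the progenitor arrays weights of 1.54 to 2.32. The replicate 2 minus replicate 1 differences of any 2 groups correlated across genes at −0.14 to 0.05. These correlations cannot show whether same-numbered arrays share an animal or culture, and the arrays were not treated as pairs.

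The share higher among calls was 41.5%, 49.9% with the mean of all probe sets, 34.7% with 75th percentile scaling, and 47.1% with median centring, chosen after seeing the data. Median centring gave 50.4% higher against 37.5% for the interaction. The median of all genes was −0.29, −0.51 with 75th percentile scaling and −0.01 with the mean of all probe sets. Signs turned for Cndp2 (0.50), Mal (0.29) and Sdha (0.59) with quantile normalization, for Foxm1 (0.076), Kcnj16 (−0.0027), Mylk (−0.51) and Slc15a2 (−0.83) with the mean of all probe sets, and for Adm (−0.88) and Ctse (−2.56) with probe sets whose IDs do not end in _s_at or _x_at; the cause was not tested. With 2 arrays a group and no detection calls, dim signals bound a fold only loosely.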
